A study of Homo sapiens with 6 samples.

Results

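The integrin and laminin genes were taken from the table of gene counts by name: every protein-coding row for an integrin alpha or beta subunit or for a laminin alpha, beta or gamma chain. This gave 38 genes of 31831 in the table, of which 17551 are protein-coding. They comprise 26 integrin genes (18 alpha and 8 beta subunits) and 12 laminin genes (5 alpha, 4 beta and 3 gamma chains). Genes of integrin-binding and integrin-like proteins, such as ITGB1BP1, were not counted as members.

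Integrins are transmembrane receptors made of an alpha and a beta subunit that tie the actin or keratin cytoskeleton to the extracellular matrix, and the pair decides which ligand is bound. Laminins are secreted trimers of an alpha, a beta and a gamma chain, and together with type IV collagen and nidogens they build the basement membrane. In the kidney tubule, epithelial cells rest on such a membrane and hold to it mainly through integrins of the beta 1 family, and its thickening is a known feature of diabetic kidney disease.

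The cells were HK-2, an established and immortalized line of human renal proximal tubule epithelium, grown in medium with 30 mM glucose for 72 h. Cells carrying an empty vector (HG-NC) were compared with cells overexpressing hnRNP-F (HG-OE), an RNA-binding protein of the nucleus, with 3 libraries of poly(A) RNA per group. Both groups carried a vector and were in high glucose. No library from normal glucose or mannitol was analysed here. The study calls the libraries of a group biological replicates and describes parallel wells, but the sources do not say whether the wells came from separate infections with the vector. The p-values measure the spread between these replicates of 1 cell line.

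The libraries held 25507595 to 29444841 counted read pairs. HNRNPF itself was at 304 to 319 CPM (counts scaled to library size with edgeR's TMM factors) in HG-NC against 423 to 452 CPM in HG-OE. On the log2 scale of HG-OE over HG-NC, used for all changes here with its SE from the fit, this is 0.48. Among 12 proximal tubule markers in the table, the transcription factor PAX8 made up 97.8% of the summed level, which was 610 to 665 CPM in HG-NC against 435 to 482 CPM in HG-OE. The endocytic receptor LRP2 had 17 counts in HG-OE replicate 3 and no count in any other library. The water channel AQP1 was at or below 0.25 CPM in every library. HG-OE replicate 3 stood apart from all other libraries: at least 80% of the HG-OE counts of 12 of 14 hepatocyte markers and 9 of 14 squamous epithelium markers lay in it. It held 4359 counts of the hepatocyte gene ALB and 724 of the squamous keratin KRT17, against at most 78 and 1 in any other library. The summed squamous list was at 178 to 192 CPM in HG-NC, 284 to 285 CPM in HG-OE replicates 1 and 2 and 378 CPM in HG-OE replicate 3, and the hepatocyte list at 268 to 278, 463 to 465 and 791 CPM. Over all libraries, S100A2 made up 45.9% of the first list and SERPINA1 83.1% of the second. In HG-OE replicates 1 and 2 SERPINA1 alone was at 457 and 458 CPM, so nearly all of the hepatocyte sum there was this gene. The general epithelial list, led by KRT8, was at 885 to 900 CPM in HG-NC against 1180 to 1835 CPM in HG-OE, but its genes did not move together. KRT8 and KRT7 were higher in HG-OE (log2 changes of 1.35 and 0.38), and EPCAM and KRT19 were lower (-0.56 and -0.55). KRT18 was at 0.76, with an edgeR adjusted p of 0.0826, above the threshold of 0.05 used here. Without HG-OE replicate 3, KRT8, KRT18 and KRT7 were at 1.11, 0.44 and 0.25, and EPCAM and KRT19 at -0.63 and -0.70. KRT18 then passed the threshold (edgeR adjusted p = 1.97e-16). KRT7 and KRT19 did not pass it without HG-NC replicate 1, 2 or 3, nor did KRT19 without HG-OE replicate 2. Endothelial markers summed to 2.29 CPM at most, fibroblast markers to 35.1 to 45.5 CPM and leukocyte markers to 27.0 to 49.0 CPM over all libraries. Values that rest on HG-OE replicate 3 are therefore given with and without it. In RNA from whole cultures, fewer cells of a kind and less RNA per cell cannot be told apart.

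Of the 38 genes, 30 had enough counts to be tested. At an adjusted p under 0.05 (quasi-likelihood test of edgeR with Benjamini-Hochberg adjustment over the 17142 genes tested), 12 were higher and 7 lower in HG-OE, and 11 were not called. Over all genes tested, 25.9% were higher and 26.2% lower by the same rule, and the 12 and 7 members come to 40.0% and 23.3%. With a change of at least 2-fold as a further condition, 2 members were higher (LAMA1 and LAMA5) and 0 were lower, beside 3.39% and 2.14% of all genes tested. The 3 libraries of a group did not overlap with the other group in 20 of the 30 tested members, or 66.7%, beside 59.0% of all genes. Of 10 laminin genes tested, 6 were higher and 1 lower, with a median log2 change of 0.28. Of 20 integrin genes tested, 6 were higher and 6 lower, with a median of -0.09, and the median of all genes tested was 0.01. No test of the difference between the families was made. Without HG-OE replicate 3, 14 of the 30 members were higher and 8 lower at an adjusted p under 0.05. Of all 17366 genes tested in that fit, 4643 were higher and 4715 lower. Of the 19 genes called with all libraries, 18 were still called.

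**Figure D1:**
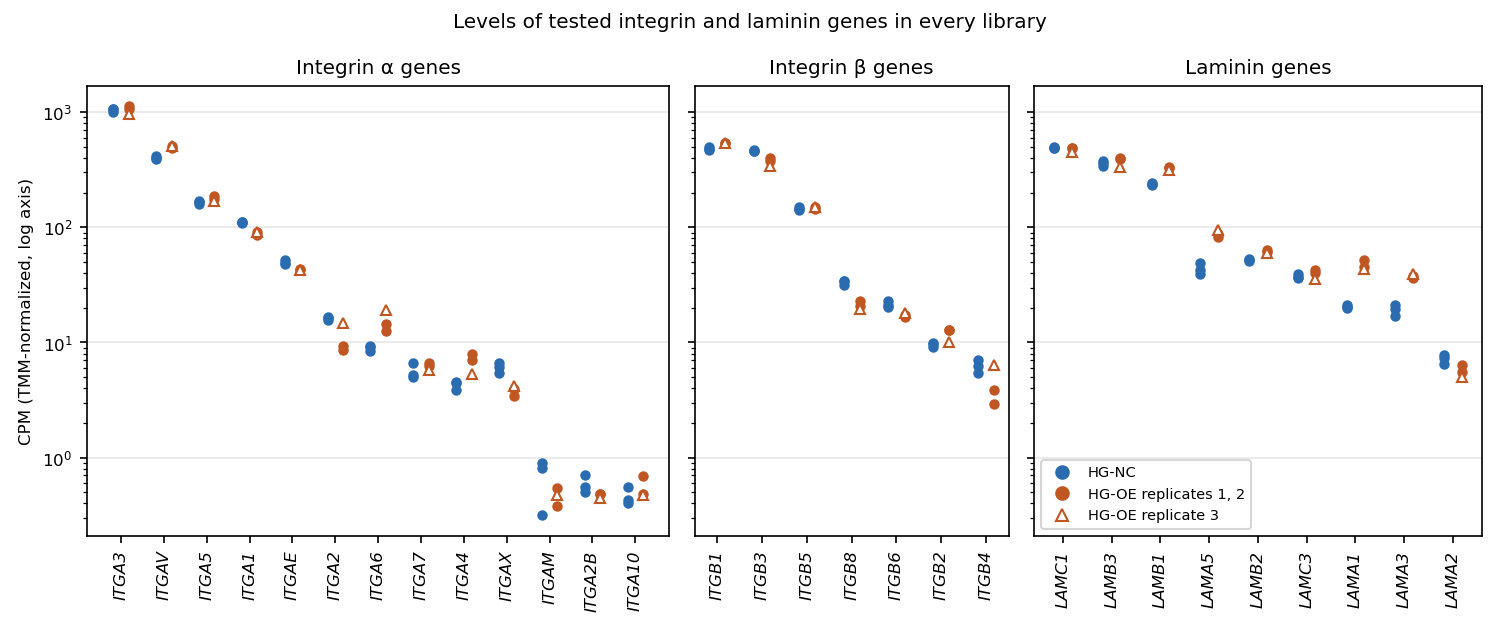
The points show CPM (log axis) of 29 of the 30 tested genes in each of the 6 libraries, HG-NC in blue and HG-OE in orange, with HG-OE replicate 3 as an open triangle. The groups separate most for LAMA1, LAMA3 and LAMA5, and for ITGA2 and ITGB4 the triangle lies near the HG-NC libraries.

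The laminin alpha chains carried the largest changes. The alpha chain gives a laminin trimer its cell-binding end, where integrins and dystroglycan attach. LAMA1 (ENSG00000101680.15, chromosome 18 from 6941742 to 7117797 in GRCh38), the chain of the embryonic and tubular basement membrane, was at 20.2, 21.1 and 19.8 CPM in HG-NC against 45.5, 51.6 and 43.2 CPM in HG-OE. All HG-OE libraries lay far above all HG-NC libraries, with a log2 change of 1.20 (SE 0.0685, edgeR adjusted p = 4.60e-12). LAMA5 (ENSG00000130702.15, chromosome 20 from 62307955 to 62367312), the widespread chain of mature basement membranes, was at 39.1, 48.6 and 42.6 CPM in HG-NC against 82.6, 86.7 and 94.8 CPM in HG-OE. This was a log2 change of 1.02 (SE 0.0756, edgeR adjusted p = 2.40e-07). Left out in turn, HG-NC replicate 1 and HG-OE replicate 3 brought LAMA5 to 0.95 and 0.96, just under 2-fold. LAMA3 (ENSG00000053747.17, chromosome 18 from 23689453 to 23956222), the chain of the epithelial anchoring laminin with LAMB3, was at 16.8, 19.5 and 21.0 CPM in HG-NC against 37.9, 36.1 and 39.2 CPM in HG-OE. Its log2 change of 0.98 (SE 0.0731, edgeR adjusted p = 3.40e-10) was just short of 2-fold, and without HG-NC replicate 3 it was 1.06. LAMA2, the muscle and nerve chain, went the other way: 7.83, 7.39 and 6.48 CPM in HG-NC against 6.41, 5.53 and 5.05 CPM in HG-OE. The groups nearly touched. The log2 change of -0.35 (SE 0.129, edgeR adjusted p = 0.0266) was no longer called without HG-NC replicate 1 or 2 or HG-OE replicate 2 or 3, at values of -0.29, -0.33, -0.33 and -0.27. LAMA4, the chain of vessels and mesenchyme, had 2 to 15 counts per library and was not tested.

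LAMA3 and LAMA5 rose together, whereas LAMB3, the partner of LAMA3, was not called, and the bases before the starts of these 3 genes are shown to let their make-up be compared. Each stretch is the 250 bases before a RefSeq start (GRCh38.p14), 5′ to 3′ on the strand of the gene. Capitals mark the AP-1 motif TGANTCA and the GC box GGGCGG, searched on both strands, so a GC box of the other strand reads CCGCCC. In the stretches shown, no AP-1 motif overlaps a GC box.
LAMA3 (chr18:23872770-23873019, plus strand): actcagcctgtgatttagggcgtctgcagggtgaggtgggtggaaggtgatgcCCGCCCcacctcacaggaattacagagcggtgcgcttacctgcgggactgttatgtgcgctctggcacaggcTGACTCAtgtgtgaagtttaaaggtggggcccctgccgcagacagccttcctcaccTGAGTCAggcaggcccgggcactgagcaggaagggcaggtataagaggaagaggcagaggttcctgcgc
LAMA5 (chr20:62367313-62367562, minus strand): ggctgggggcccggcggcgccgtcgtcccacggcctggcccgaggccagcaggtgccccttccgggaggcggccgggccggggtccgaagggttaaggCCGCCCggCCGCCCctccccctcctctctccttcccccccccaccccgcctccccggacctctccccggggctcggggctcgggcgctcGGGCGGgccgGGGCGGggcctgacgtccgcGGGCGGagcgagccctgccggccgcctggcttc
LAMB3 (chr1:209651375-209651624, minus strand): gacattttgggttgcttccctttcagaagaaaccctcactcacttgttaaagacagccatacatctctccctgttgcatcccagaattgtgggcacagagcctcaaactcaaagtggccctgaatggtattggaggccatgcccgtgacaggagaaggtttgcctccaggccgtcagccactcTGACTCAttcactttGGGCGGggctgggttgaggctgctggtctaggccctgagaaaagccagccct
The LAMA3 stretch holds 2 AP-1 motifs, beginning 125 and 69 bases before the start, and 1 GC box. That of LAMA5 holds 5 GC boxes and no AP-1 motif. The LAMB3 stretch holds 1 AP-1 motif, 67 bases before the start, and 1 GC box. This LAMA3 start lies 183567 bases inside the gene and belongs to a shorter transcript, and the counts do not separate the transcripts. The LAMB3 start shown lies 1051 bases inside the gene, and the stretches before its other 2 starts hold no AP-1 motif. RefSeq windows of 300 bases were at hand for 26 of the 38 genes, with 33 starts, and not for ITGA3, ITGA7, ITGA9, ITGAD, ITGAL, ITGAX, ITGB2, ITGB3, ITGB4, LAMA1 and LAMC3, among others. AP-1 motifs were found in 3 of the 33 windows (ITGA5, LAMA3 and LAMB3) and in 7.71% of all 35116 windows. GC boxes were found in 19 of 33 windows and in 15786 of all. The motif of NF-kB (GGGRNWYYCC in IUPAC letters) was found in 6 of 33 (ITGA1, ITGA5, ITGA10, ITGA11 and LAMB3) and in 5.91% of all. Of these 6 windows, 2 are overlapping windows of LAMB3 that hold the same NF-kB sites. Their GC box is also the same one. These matches describe letters and were not tested as binding sites.

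The beta chains, LAMC1 and LAMC3 changed less than LAMA1, LAMA3 and LAMA5. LAMB1 (ENSG00000091136.15, chromosome 7 from 107923799 to 108003213), the beta chain that joins LAMA1 or LAMA5 with LAMC1, was at 241, 234 and 239 CPM in HG-NC against 327, 332 and 312 CPM in HG-OE. It rose by a log2 change of 0.44 (SE 0.0392, edgeR adjusted p = 3.89e-09), and the groups stood well apart. LAMB2, the beta chain of the glomerular and synaptic basement membrane, was at 51.2, 53.1 and 51.7 CPM against 60.6, 63.9 and 60.0 CPM, a rise of 0.24 (SE 0.0499, edgeR adjusted p = 0.0003055). LAMC1, the common gamma chain, was at 490 to 498 CPM in HG-NC against 454 to 491 CPM in HG-OE, with a log2 change of -0.04 (SE 0.0398, edgeR adjusted p = 0.374). LAMB3 was at 342 to 374 CPM in HG-NC against 392, 397 and 333 CPM in HG-OE, where HG-OE replicate 3 was the lowest of all 6 libraries. The log2 change was 0.06 (SE 0.0636, edgeR adjusted p = 0.443) and, without that library, 0.14 (edgeR adjusted p = 0.000976). LAMC3, a gamma chain of few tissues, gave the same picture at a lower level: 36.5 to 39.2 CPM in HG-NC against 42.6, 40.4 and 35.5 CPM in HG-OE. The log2 change was 0.07 with all libraries and 0.14 without HG-OE replicate 3 (edgeR adjusted p = 0.0442). LAMB4 had at most 3 counts in any library and was not tested.

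Levels of different genes were compared with FPKM, which divides by a length for each gene. The lengths used are not given in the sources used here. ITGB1 and ITGB3 were at 481 and 459 CPM in HG-NC but at 29.6 and 64.7 FPKM, so their lengths differed widely. Orders, shares and ratios between genes in FPKM depend on these lengths. The alpha and the beta chains stood at very different levels. Summed alpha chains were at 5.70 ± 0.375 FPKM in HG-NC and 10.9 ± 0.280 FPKM in HG-OE (SD, n = 3 libraries each). Summed beta chains were at 87.2 ± 3.38 and 94.6 ± 7.39 FPKM. By this measure the alpha chains were far scarcer than the beta chains in every library. Libraries of the groups did not overlap in the alpha sum (p = 0.1 in an exact permutation test, two-sided, which cannot go lower with 3 libraries a group) and overlapped in the beta sum (p = 0.3 by the exact permutation test). Within the alpha sum, LAMA5 made up 47.7% in HG-NC and 50.1% in HG-OE, LAMA1 20.2% and 24.0%, LAMA3 20.7% and 21.2%, and LAMA2 9.86% to 12.6% of it in HG-NC libraries and 3.86% to 5.20% in HG-OE libraries. LAMB3 made up 79.1% and 75.3% of the beta sum.

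**Figure D2:**
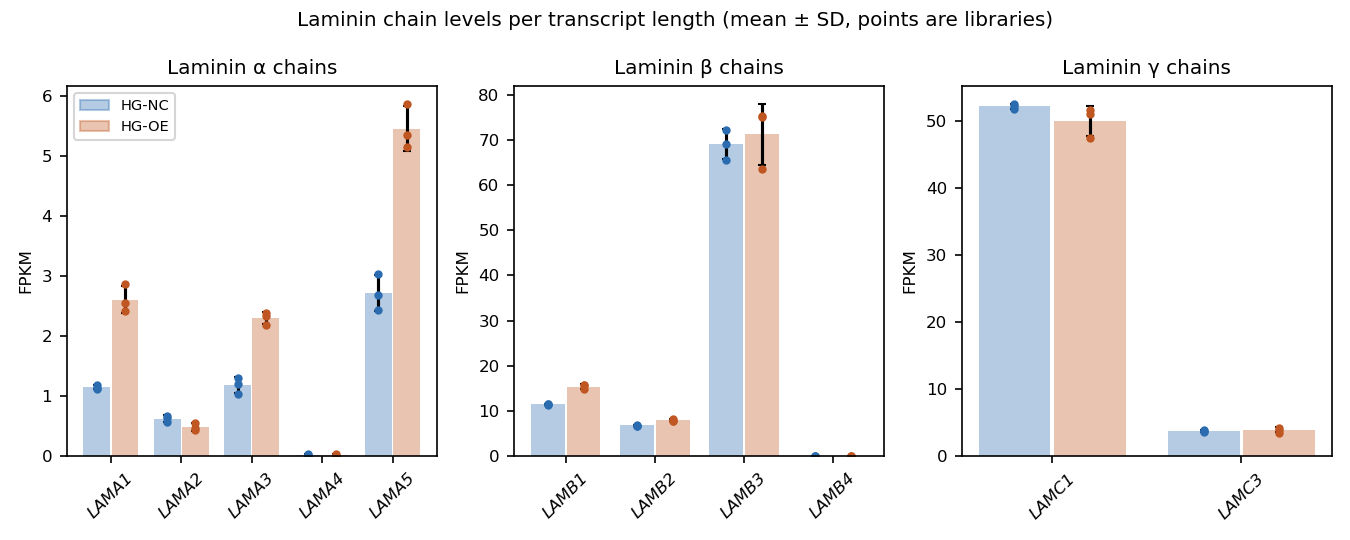
Bars show the mean FPKM of 11 laminin chains per group, with the SD as error bar and the 3 libraries as points; each panel has its own axis. The alpha chains reach about 5.45 FPKM (LAMA5 in HG-OE), while LAMB3 reaches 71.2 FPKM, and the HG-OE bars of LAMA1, LAMA3 and LAMA5 stand clear of the HG-NC bars.

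Over integrins and laminins together, ITGA3 stood at 95.2 ± 3.84 FPKM in HG-NC and 94.7 ± 7.41 FPKM in HG-OE, above LAMB3 at 69.0 ± 3.32 and 71.2 ± 6.75 FPKM. These genes kept separate ranges in both groups (n = 3 libraries each). The next genes were ITGB3 (64.7 and 52.0 FPKM), LAMC1 (52.2 and 50.1 FPKM) and ITGAV (43.7 and 53.8 FPKM). In HG-NC these stood apart from each other, and in HG-OE the range of ITGB3 overlapped that of LAMC1, while all ITGAV values lay just above those of LAMC1. ITGB1 followed at 29.6 and 32.8 FPKM. ITGA5 and ITGB5, both near 20 FPKM, were not separate in either group. The beta subunits summed to 122 ± 0.756 FPKM in HG-NC and 111 ± 3.73 FPKM in HG-OE, without overlap. Within that sum, ITGB3 made up 53.2% and 46.8% and ITGB1 24.3% and 29.5%.

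Among the laminin-binding alpha subunits, ITGA6 rose and the most abundant, ITGA3, was not called. ITGA3, whose pair with ITGB1 binds the laminins with LAMA3 or LAMA5 and is a main receptor of kidney epithelium, was at 997, 1064 and 1066 CPM in HG-NC against 1071, 1120 and 957 CPM in HG-OE. The groups overlapped fully, with a log2 change of 0.01 (SE 0.0511, edgeR adjusted p = 0.896). ITGA6 (ENSG00000091409.16, chromosome 2 from 172427354 to 172506459), which pairs with ITGB1 or, in hemidesmosomes, with ITGB4, was at 9.40, 9.13 and 8.44 CPM in HG-NC against 12.7, 14.5 and 19.1 CPM in HG-OE. The highest value was that of HG-OE replicate 3. The log2 change was 0.78 (SE 0.129, edgeR adjusted p = 0.000120) and dropped to 0.60 without that library. ITGA7, the laminin receptor of muscle, was at 5.03 to 6.58 CPM in HG-NC against 5.74 to 6.70 CPM in HG-OE and was not called (log2 change 0.14, edgeR adjusted p = 0.393).

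ITGB4, the beta subunit of hemidesmosomes, was at 6.21, 5.47 and 6.98 CPM in HG-NC against 3.89, 2.92 and 6.32 CPM in HG-OE. HG-OE replicates 1 and 2 lay below HG-NC and replicate 3 lay within it. With all libraries the log2 change was -0.51 (SE 0.259, edgeR adjusted p = 0.139), and without HG-OE replicate 3 it was -0.87 (edgeR adjusted p = 2.03e-06). Counts of KRT5, a partner keratin of hemidesmosomes in squamous epithelium, were 0 in the other 5 libraries and 334 in HG-OE replicate 3. The part of the squamous genes of that library in the values of ITGA6 and ITGB4 was not tested. Of the 4 other hemidesmosome components, 2 were higher and 1 lower, beside 25.9% and 26.2% of all genes tested. The cytolinker PLEC rose by a log2 change of 0.80 and the tetraspanin CD151, which binds ITGA3 and ITGA6 pairs, by 0.43. The cytolinker DST fell by 0.13 (edgeR adjusted p = 0.0162), and without HG-NC replicate 3 or HG-OE replicate 1 it was no longer called (-0.11 and -0.12). COL17A1, the transmembrane collagen, was at 11 to 19 counts in HG-NC and at 22, 40 and 121 counts in HG-OE. The log2 change was 1.83 (edgeR adjusted p = 0.103) with all libraries, 2.23 (edgeR adjusted p = 0.00174) without HG-OE replicate 1 and 0.87 (edgeR adjusted p = 0.0382) without HG-OE replicate 3. Among 3 laminin receptors that are not integrins, dystroglycan (DAG1) and the ribosomal protein RPSA, also known as the laminin receptor, rose by 0.85 and 0.82. BCAM, which binds LAMA5, was at 0.02 (edgeR adjusted p = 0.940), and without HG-OE replicate 3 it was lower, at -0.20 (edgeR adjusted p = 0.0117).

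The receptors of RGD ligands, named for a short peptide motif of fibronectin and related proteins, did not move together. ITGAV (ENSG00000138448.12, chromosome 2 from 186590010 to 186680901), the alpha subunit shared by 5 beta partners, was at 415, 390 and 401 CPM in HG-NC against 504, 484 and 511 CPM in HG-OE. It rose by a log2 change of 0.31 (SE 0.0394, edgeR adjusted p = 7.03e-07). Its partner ITGB1 (chromosome 10 from 32887273 to 33005792), the beta subunit of most matrix receptors, was at 496, 482 and 466 CPM against 538, 542 and 537 CPM, a rise of 0.16 (SE 0.0380, edgeR adjusted p = 0.000968). None of the other 4 partners of ITGAV was called higher. ITGB3 (ENSG00000259207.9, chromosome 17 from 47253827 to 47313743), the vitronectin receptor subunit, was at 464, 456 and 456 CPM in HG-NC against 377, 398 and 342 CPM in HG-OE, a log2 change of -0.30 (SE 0.0463, edgeR adjusted p = 1.54e-05). ITGB8 (ENSG00000105855.10, chromosome 7 from 20330702 to 20415754), which with ITGAV releases active TGF-beta from its latent form, was at 34.4, 31.3 and 34.3 CPM against 20.6, 22.8 and 19.5 CPM. Its log2 change of -0.67 (SE 0.0699, edgeR adjusted p = 5.14e-08) was the lowest among the called members, with the groups far apart. ITGB6, the other TGF-beta activating subunit and one of epithelium, was at 21.4, 22.7 and 20.4 CPM against 16.6, 17.2 and 17.9 CPM, a log2 change of -0.32 (SE 0.0760, edgeR adjusted p = 0.00135). ITGB5 was at 141 to 151 CPM in HG-NC against 146 to 151 CPM in HG-OE and was not called (0.04, edgeR adjusted p = 0.491). ITGA5, the alpha subunit of the fibronectin receptor, was at 158, 167 and 168 CPM in HG-NC against 177, 189 and 168 CPM in HG-OE, and the groups touched. Its log2 change of 0.11 (edgeR adjusted p = 0.0391) was no longer called without any 1 of HG-NC replicates 1, 2 and 3 and HG-OE replicates 1 and 2 (0.07 to 0.13), and was 0.15 without HG-OE replicate 3. ITGA8, the receptor of nephronectin in the developing kidney, had 1 count in all 6 libraries together and was not tested. The platelet subunit ITGA2B had a mean of 14.7 counts and was not called.

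Of 14 matrix and TGF-beta genes tested that were listed with these integrins, 5 were higher (35.7%) and 6 lower (42.9%), with a median log2 change of -0.04. The list was not limited to proteins that carry the RGD motif. The shares over all genes tested were 25.9% and 26.2%. Fibronectin (FN1) was at 4325 ± 83.3 CPM in HG-NC against 3645 ± 178 CPM in HG-OE (SD, n = 3 libraries each), a log2 change of -0.25, and osteopontin (SPP1) was at 3144 ± 95.2 and 2120 ± 37.4 CPM, at -0.57. Both fell, as did thrombospondin 1 (THBS1, -0.94) and the matricellular proteins CCN1 (-0.60) and CCN2 (-0.60). Fibrillin 1 (FBN1) rose by 0.84, tenascin C (TNC) by 0.78 and TGFB2 by 0.46. Nephronectin (NPNT) rose by 0.18. TGFB1, whose latent form ITGAV with ITGB6 or ITGB8 binds, was at -0.01 (edgeR adjusted p = 0.907). Vitronectin (VTN) had 342 counts in HG-OE replicate 3 and at most 2 in any other library.

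Of the collagen-binding alpha subunits, ITGA1 fell. ITGA1 (ENSG00000213949.10, chromosome 5 from 52787916 to 52959209), which prefers type IV collagen, was at 112, 111 and 108 CPM in HG-NC against 90.2, 85.7 and 90.3 CPM in HG-OE, with the groups far apart. The log2 change was -0.32 (SE 0.0425, edgeR adjusted p = 1.90e-06). ITGA2, its neighbour on chromosome 5 from 52989340 to 53094779 and a receptor that prefers fibrillar collagen, was at 15.7, 16.3 and 16.7 CPM against 9.41, 8.59 and 14.8 CPM. All HG-OE libraries were lower, and HG-OE replicate 3 was close to HG-NC. With all libraries its log2 change was -0.57 (SE 0.205, edgeR adjusted p = 0.0582), and without HG-OE replicate 3 it was -0.85 (edgeR adjusted p = 2.22e-11). ITGA10 was at 0.41 to 0.69 CPM and not called, and ITGA11 had at most 1 count per library. Among the ligands, COL4A1 was at 0.08 (edgeR adjusted p = 0.0988) with all libraries and was called at 0.10 without HG-OE replicate 3. COL4A2 rose by 0.17 (edgeR adjusted p = 0.0380), a call lost without HG-NC replicate 1 or 2 or HG-OE replicate 1 or 2 (0.14, 0.18, 0.14 and 0.11). Of 4 fibrillar collagen genes tested, 1 was higher and 1 lower, beside 25.9% and 26.2% of all genes tested. COL5A1 had 24 to 30 counts per HG-NC library and 323 to 356 per HG-OE library, a rise of 3.52 (SE 0.148, edgeR), while COL1A1 was at -0.23 (edgeR adjusted p = 0.0689) and, without HG-OE replicate 2, at -0.35 (edgeR adjusted p = 0.0121). COL1A2 had 141 counts in HG-OE replicate 3 and no count in any other library.

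Of the integrins best known from leukocytes, ITGAE was at 6.70 FPKM in HG-NC and 5.78 FPKM in HG-OE, above ITGA1, and the others had group means of at most 1.53 FPKM. Of 12 leukocyte markers, 4 had at most 3 counts in every library, among them PTPRC, CD3E and TYROBP, while 7 had enough counts to be tested, among them the members ITGAM and ITGB2. CD14 had 78 to 80 counts per HG-NC library and 120, 141 and 428 in HG-OE, and LCP1 had 121 to 138 and 102, 127 and 354, with HG-OE replicate 3 the highest for both. LAPTM5 rose by 0.70, and FCER1G and CD68 fell by 0.84 and 0.67. The part of these markers in the integrin values was not tested. ITGA4 (chromosome 2 from 181457202 to 181538940), which with ITGB1 binds VCAM1 and fibronectin, was at 4.48, 3.84 and 4.54 CPM in HG-NC against 7.03, 7.93 and 5.36 CPM in HG-OE. It rose by 0.66 (SE 0.149, edgeR adjusted p = 0.000782), and without HG-OE replicate 3 the value was 0.80. ITGAE, the alpha subunit of the E-cadherin receptor of intraepithelial lymphocytes, was at 51.6, 48.5 and 48.0 CPM against 42.8, 43.6 and 42.9 CPM, a log2 change of -0.20 (SE 0.0534, edgeR adjusted p = 0.00378). ITGAX, a complement receptor subunit, was at 6.14, 5.39 and 6.62 CPM against 3.41, 3.92 and 4.17 CPM, a log2 change of -0.66 (SE 0.143, edgeR adjusted p = 0.000511). Its beta partner ITGB2 went up, from 9.87, 9.68 and 9.09 CPM to 12.8, 12.8 and 10.1 CPM. This log2 change of 0.32 (SE 0.106, edgeR adjusted p = 0.01445) was not called without HG-NC replicate 3 or HG-OE replicate 1 or 2 (0.29, 0.26 and 0.26). ITGAM had a mean of 16 counts and was not called. ITGAL had 25 counts in HG-OE replicate 3 and at most 1 in any other library, and ITGA9, ITGAD and ITGB7 were at or below 0.22 CPM throughout. None of these 4 was tested. Of 10 cell-surface ligands of these integrins that were tested, 0 were higher and 5 lower, beside 25.9% and 26.2% of all genes tested. VCAM1 was at 36.4 ± 0.308 CPM in HG-NC against 19.3 ± 0.160 CPM in HG-OE (SD, n = 3 libraries each), a log2 change of -0.91, and ICAM1 was at 422 ± 17.0 and 271 ± 24.4 CPM, at -0.64. JAM2 fell by 0.52. E-cadherin (CDH1), the ligand of ITGAE with ITGB7, had 384 counts in HG-OE replicate 3 and at most 10 in any other library.

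**Figure D3:**
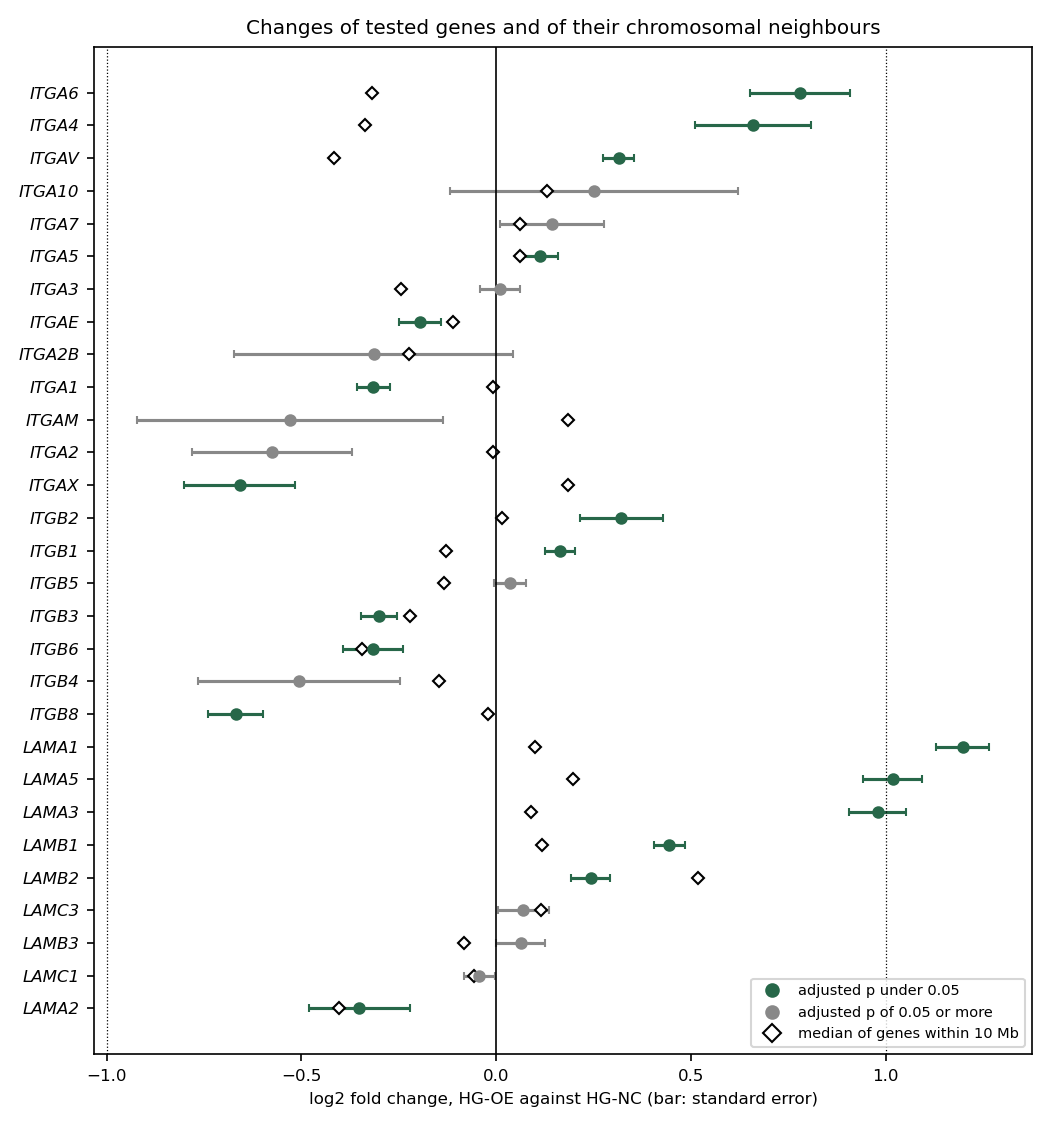
Each point is the log2 change of 1 of 29 tested genes (HG-OE against HG-NC, bar: SE), green where the adjusted p is under 0.05, and each open diamond is the median of the genes within 10 Mb. LAMA1, LAMA5 and LAMA3 lie near or beyond the dotted line at 1, and ITGA6, ITGA4 and ITGAV lie to the right of diamonds at -0.32, -0.34 and -0.42.

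Changes of genes were set beside those of their chromosomal neighbours, since the median log2 change of well-counted genes within 10 Mb differed between places. On chromosome 2 the neighbours of ITGA4, ITGA6 and ITGAV were lower, with medians of -0.34, -0.32 and -0.42, so these 3 genes rose among genes that were lower on balance. With that median taken off, their differences were 1.00, 1.10 and 0.73. ITGB6, also on chromosome 2, fell no more than its neighbours, whose median was -0.34, and the same held for LAMA2 on chromosome 6, at a median of -0.40. Around LAMB2 on chromosome 3 the median was 0.52, above the 0.24 of LAMB2 itself, and around DAG1 it was 0.51. Around ITGB3 on chromosome 17 it was -0.22, leaving -0.08. Around the ligand FN1 it was -0.20, leaving -0.05, around SPP1 and CCN2 -0.35 and -0.38, leaving -0.22 for each, and around RPSA 0.49, leaving 0.34. Around THBS1, VCAM1 and ICAM1 it was nearer to that of all genes, at -0.04, -0.09 and -0.06. For LAMA1, LAMA3 and LAMA5 the neighbours' medians were 0.10, 0.09 and 0.20, and for ITGB8 -0.02. The part of the neighbourhood in the members' values was not tested.

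The ratio of 2 partner chains within a library does not depend on how the library was scaled. Of 34 pairs known to form receptors or trimers, 24 had enough counts in both genes, and in 21 the log2 ratios of the groups did not overlap. Each of these has an exact two-sided permutation p of 0.1, the smallest that 3 libraries against 3 allow, and 0.114 after adjustment over the 24 pairs, so none could pass 0.05. Pairs share genes and are not independent. The share for pairs of other genes was not computed, and 59.0% of all single genes tested did not overlap between the groups. ITGA6 against ITGB4 had the widest shift, from log2 ratios of 0.60, 0.74 and 0.28 in HG-NC to 1.70, 2.32 and 1.59 in HG-OE, a difference of 1.33 (SE 0.263). In FPKM, ITGA6 stood at 1.49 times ITGB4 in HG-NC and at 3.79 times in HG-OE. ITGAV against ITGB3 went from log2 ratios of -0.16, -0.23 and -0.19 to 0.42, 0.28 and 0.58, a difference of 0.62 (SE 0.0874), and in FPKM from 0.676 to 1.04. By counts, which are not corrected for transcript length, ITGAV was thus below ITGB3 in every HG-NC library and above it in every HG-OE library. By FPKM it was below ITGB3 in every HG-NC library and above it in HG-OE replicates 1 and 3. In HG-OE replicate 2 it was still below, at 51.8 against 55.2 FPKM. ITGAV against ITGB8 shifted by 0.99 and against ITGB6 by 0.63, against ITGB5 by 0.28 and against ITGB1 by 0.15. ITGAX against ITGB2 shifted by -0.97, ITGA2 against ITGB1 by -0.78 and ITGA1 against ITGB1 by -0.48. Ratios of the groups overlapped for ITGA3, ITGA5 and ITGA7 against ITGB1 (-0.16, -0.05 and -0.01). Without HG-OE replicate 3, the ITGA2 ratio was at -1.02, and the ratio of ITGA6 to ITGB4 at 1.47.

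Among laminin pairs, LAMA1, LAMA3 and LAMA5 gained on the partners shown here. LAMA5 against LAMC1 shifted by 1.07 (SE 0.127) and against LAMB1 and LAMB2 by 0.58 and 0.78. LAMA3 shifted by 0.93 against LAMB3, and LAMA1 by 0.75 against LAMB1. In FPKM, LAMA3 was at 0.0171 times LAMB3 in HG-NC and 0.0326 times in HG-OE, so it stayed far below its partner. LAMB1 gained 0.49 and LAMB2 0.29 on LAMC1.

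**Figure D4:**
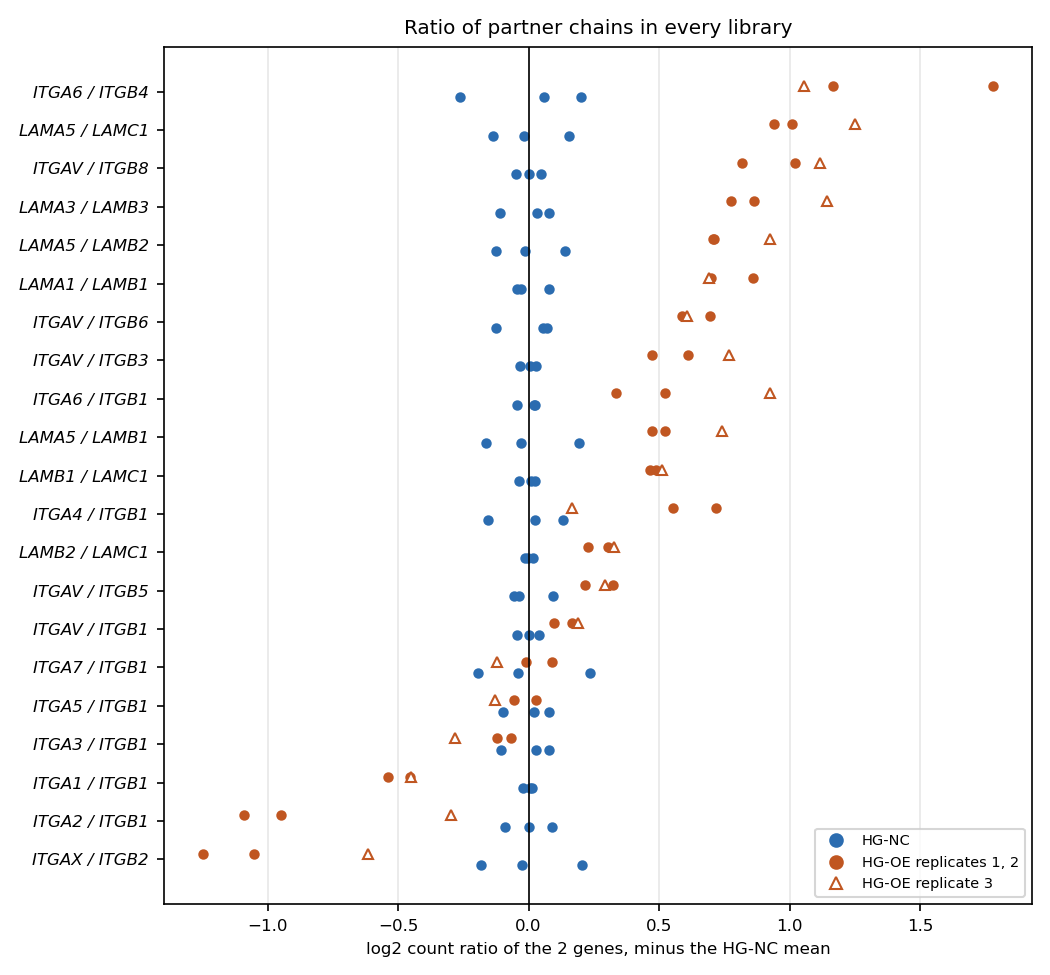
Points show the log2 ratio of counts of 21 of the 24 partner pairs in each library, minus the mean of HG-NC (HG-NC blue, HG-OE orange, HG-OE replicate 3 as an open triangle). Overlap is seen for ITGA7, ITGA5 and ITGA3 against ITGB1, and the ITGA6 to ITGB4 ratio lies 1.33 higher in HG-OE on average.

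Set side by side, receptors and ligands gave several patterns. For the laminin of LAMA3 and LAMB3, LAMA3 rose and LAMB3 was not called, while of its receptors ITGA6 rose, ITGA3 was at 0.01 and ITGB4 was at -0.51 without being called. For ITGA5 with ITGB1, the ligand FN1 fell by 0.25, among neighbours with a median of -0.20. For ITGAV with ITGB3, ITGB3 and SPP1 fell and ITGAV rose. For ITGA4 with ITGB1, both subunits rose while VCAM1 fell by 0.91. For ITGAX with ITGB2, ICAM1 fell by 0.64 with ITGAX. For ITGA8 and ITGA9, the receptors were nearly absent while NPNT and TNC rose.

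A further list held genes for proteins that act at integrin tails inside the cell, from links to actin to kinases and signalling adaptors. Of 27 tested, 16 (59.3%) were higher and 7 (25.9%) lower, with a median log2 change of 0.30. Of all genes tested, 25.9% were higher and 26.2% lower, so the share of lower genes was that of the background. Without HG-OE replicate 3, 15 of the list were higher and 8 lower, beside 4643 and 4715 of all 17366 genes tested in that fit. The paxillin relative TGFB1I1 rose by 0.84 and the actin cross-linker FLNA by 0.72, with neighbours' medians of 0.18 and 0.25. PARVA, which forms a complex with ILK and PINCH proteins at integrin tails, went from 43.4 ± 3.35 to 16.1 ± 2.95 CPM (SD, n = 3 libraries each), a log2 change of -1.43. The tensin TNS1 fell by 0.74 and the epithelial kindlin FERMT1 by 0.44.

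Of 14 other basement membrane genes tested, 8 (57.1%) were higher and 3 (21.4%) lower, beside 25.9% and 26.2% of all genes tested, with a median log2 change of 0.32. The laminin-binding linker NID2 went from 25.6 ± 0.843 to 66.0 ± 6.61 CPM (SD, n = 3 libraries each), a log2 change of 1.37. NTN4, which binds laminin gamma chains, rose by 0.92 and SPARC, a collagen-binding protein, by 0.66. FREM2 fell by 0.57, FRAS1 by 0.19 and AGRN, which binds laminins to dystroglycan, by 0.18. FRAS1 was called in only some of the fits with a library left out: without HG-NC replicate 1 or 2 or HG-OE replicate 2 or 3 it was not (-0.19, -0.14, -0.19 and -0.13). FREM2 was not called without HG-NC replicate 2 (-0.48). Without HG-OE replicate 3, 9 genes of this list were higher and 4 lower, beside 4643 and 4715 of all 17366 genes tested in that fit. The proteoglycan HSPG2 (perlecan) went from -0.45 (edgeR adjusted p = 0.0964) to -0.63 (edgeR adjusted p = 3.06e-20) and the type IV collagen chain COL4A5 from -0.37 (edgeR adjusted p = 0.584) to -1.01 (edgeR adjusted p = 3.02e-06), both then called as lower, and COL4A1 was then called as higher.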

How the data were processed

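Reads were trimmed by the authors and mapped to GRCh38, with HISAT2 (version not given in the sources used here). The authors deposited raw counts, whole numbers of uniquely mapping pairs on each gene, and FPKM values. They name ComBat_seq for batch correction without naming the batches. Whether it touched these counts is not given in the sources used here, and no batch was examined.

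Counts were analysed with edgeR 4.0.16 in R 4.3.3 (TMM, default low-count filter, robust quasi-likelihood test, Benjamini-Hochberg over 17142 genes). Alternatives used DESeq2 1.42.0 and limma 3.58.1 on FPKM. Ratios of partner genes (mean of at least 20 counts each) were tested by exact permutation in scipy 1.17.1. Levels between genes use the deposited FPKM. Positions come from GENCODE 44. Neighbours are genes within 10 Mb with a mean of at least 100 counts. On simulated data the steps recovered the changed genes.

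Members, gene lists, pairs and rules were chosen with earlier results of these data known. Members with at least 20 counts on average are named. Of each list, up to 3 rises and 3 falls with an adjusted p under 0.05 and a mean of at least 100 counts are named, with the ligands of the pairs and, for markers, totals and leading genes. COL17A1, BCAM, KRT5, HSPG2, COL4A5 and other single markers were named after their values were seen. Mannitol libraries were not analysed here. Some genes enter the counts and fits but are not reported here.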

Additional observations from a re-analysis of the deposited data

How the results depend on the processing

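Of the 19 genes called, 15 were called under each of the 15 alternative fits (other size factors, 2 other low-count filters, a replicate block, leaving out each library, DESeq2, edgeR without robust estimation, which was added after the data were seen, and limma on FPKM 3 ways). The other 4 were ITGA4, ITGA5, ITGB2 and LAMA2. ITGA4 was lost only with limma on log2(FPKM + 1) without a filter (0.20, adjusted p = 0.0806). Of the 11 genes not called, ITGA2, ITGB4, LAMB3 and LAMC3 were called under at least 1 alternative. Members at least 2-fold higher numbered 1 to 3 with each library left out, 0 with limma on log2(FPKM + 1) with or without a filter, and 1 on log2(FPKM + 0.1), since LAMA1 and LAMA5 are low in FPKM and the added constant shrinks their folds. Over all genes, 981 were at least 2-fold higher without the low-count filter and 339 with at least 10 counts in every library, and limma on log2(FPKM + 1) gave 76 higher and 68 lower, or 70 and 68 without a filter. With the replicate number as a block, 12 members were higher and 9 lower (4438 and 4510 of all genes). Same-numbered libraries of the groups did not deviate together (correlations -0.03, 0.03 and -0.001). No pairing by number was thus seen, though these values cannot settle whether the wells were paired. The sign of ITGA3 turned without the low-count filter (-0.0055), without HG-NC replicate 1 or HG-OE replicate 1 or 2 (-0.020, -0.0071 and -0.040) and with limma (-0.0090, -0.0092 and -0.0090), never past the threshold, and was 0.071 at most, without HG-OE replicate 3. With the neighbours' median taken off, LAMA2 turned to 0.052, ITGB6 to 0.028 and LAMB2 to -0.28. Depth limits the 8 genes not tested, which had at most 25 counts in any library, and 3 tested genes with under 20 counts on average.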
